A study of Mus musculus with 4 samples.

Results

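The calcineurin subunits and NFAT factors are 10 of the 32285 genes counted in each of 4 single-cell libraries of mouse pancreas and pancreatic tumour. They were taken by symbol: the NFAT factors Nfatc1, Nfatc2, Nfatc3, Nfatc4 and Nfat5, the calcineurin catalytic subunits Ppp3ca, Ppp3cb and Ppp3cc, the regulatory subunit Ppp3r1, and the calcineurin inhibitor Rcan1. All 10 symbols were present in every matrix. The libraries were a normal pancreas, a pancreas ligated with suture to bring on pancreatitis, a control tumour and a tumour treated with AF12198. Both tumours came from KPC cells, pancreatic cancer cells of a mouse model of the disease, placed into a ligated pancreas, so both also carry the ligation. The control tumour had weekly intraperitoneal saline, the other weekly intraperitoneal AF12198, a small peptide that blocks the receptor IL1R1 of interleukin-1, and tissue was harvested at 4 weeks. The series title ties the study to NFAT in the fibroblasts of pancreatic tumours. Strain, age, the number of animals behind a library and the normal and ligated animals' treatment are not given in the labels used here. Each group was 1 library, so no difference between groups has a replicate check and no p-value is given.

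Calcineurin is a phosphatase of a catalytic and a regulatory subunit that a rise in calcium inside the cell turns on. It removes phosphates from the NFATc proteins, which then enter the nucleus and drive genes such as cytokines in T cells and, in the osteoclast, the genes of bone resorption. NFAT5 shares their DNA-binding domain but responds to osmotic stress and not to calcineurin. RCAN1 binds and inhibits calcineurin, and its short form is transcribed from an inner start that NFAT itself is known to drive, so its transcript is widely read as a sign of NFAT activity. Cyclosporin and tacrolimus act by blocking calcineurin.

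The 250 bases before 3 start sites are shown because the results below turn on Rcan1 and Nfatc4. Rcan1 has a start known to follow NFAT and one that is not known for it. Nfatc4 was highest in fibroblast-like cells among the named classes of the tumours. They are from RefSeq on GRCm38.p6, read 5′ to 3′ on the gene's strand. Capitals mark GGAAA, the core that NFAT proteins bind, or TTTCC, the same core on the other strand. Rcan1 (ENSMUSG00000022951) spans chr16:92391953-92470867 on the minus strand and Nfatc4 (ENSMUSG00000023411) spans chr14:55823144-55833943 on the plus strand.
Rcan1 upstream start, chr16:92466170-92466419, minus strand: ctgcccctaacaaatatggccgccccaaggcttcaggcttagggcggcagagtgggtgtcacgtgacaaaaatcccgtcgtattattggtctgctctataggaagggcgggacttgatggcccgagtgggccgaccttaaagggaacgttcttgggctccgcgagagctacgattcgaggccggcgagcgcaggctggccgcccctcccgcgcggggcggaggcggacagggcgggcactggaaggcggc
Rcan1 inner start, chr16:92400079-92400328, minus strand: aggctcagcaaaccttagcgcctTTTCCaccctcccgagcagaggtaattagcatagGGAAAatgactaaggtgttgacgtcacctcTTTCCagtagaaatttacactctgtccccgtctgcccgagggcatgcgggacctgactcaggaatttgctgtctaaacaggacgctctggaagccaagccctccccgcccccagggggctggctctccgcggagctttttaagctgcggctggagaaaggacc
Nfatc4, chr14:55824545-55824794, plus strand: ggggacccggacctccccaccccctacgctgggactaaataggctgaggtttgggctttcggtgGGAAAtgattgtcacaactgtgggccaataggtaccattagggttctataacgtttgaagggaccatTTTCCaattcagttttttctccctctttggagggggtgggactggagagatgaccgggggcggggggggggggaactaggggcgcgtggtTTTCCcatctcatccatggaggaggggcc
The window before the upstream Rcan1 start held 0 matches, and the window before the inner start held 3. Nfatc4 also had 3. Of 32851 windows of this length in the table, 55.6% held at least 1 match and 6.39% at least 3. Among the other members whose windows were counted, those of Ppp3cb and of 1 of 2 Nfatc2 starts held 3 matches, and Nfat5 2. The other Nfatc2 start and 1 of 2 Nfatc3 starts held 1, and the other Nfatc3 start and Ppp3r1 0. In all, windows were counted for 7 of the 10 members. None was counted for Nfatc1, Ppp3ca and Ppp3cc, and whether the table holds windows for them is not reported here. A match is a description of letters and not a site. Counts from the 3′ end of transcripts do not separate the starts of Rcan1, so every Rcan1 value below joins its forms.

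After filtering, the libraries held 1771 cells (normal), 1124 (ligated), 19235 (control tumour) and 18875 (AF12198 tumour), with medians of 1589 to 2298 unique molecular identifiers (UMIs, 1 per captured transcript) per cell. Libraries shared 1 to 92 cell barcodes, the most between the tumours. Cells were grouped into 30 clusters, of which 28 were named by markers in 14 classes, written with the ending -like. The neutrophil-like clusters split by tumour library: a cluster led by Il1r2 and Hdc held 5420 cells of the control tumour and 97 of the AF12198 tumour, and a cluster led by Tnf and Il1a held 89 and 3763. In the fibroblast-like class 16 of 16 fibroblast markers were raised at least 2-fold over the other cells. These markers took 30010, 59170, 58780 and 50910 of each 1e6 UMIs (normal, ligated, control tumour, AF12198 tumour). A UMI alone says little, since 16 of 16 macrophage/monocyte markers also had one in these cells of the ligated pancreas and both tumours. The label pancreas was met by epithelial-like and some acinar-like cells in every library, though acinar-like cells numbered 2 and 11 in the normal and ligated libraries and endocrine-like cells numbered 114 in the normal pancreas and 0 in the control tumour. Levels are counts of a gene scaled to the total UMIs of the class in a library (counts per 1e6 UMIs, CPM), with exact Poisson 95% intervals. These, and the exact intervals of ratios and shares given in parentheses, cover counting error only. UMIs at the 3′ end are not divided by length, and levels are compared between cell classes and libraries, not between genes.

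The heat map of all members gives the plainest picture of who carried what. Among NFATc factors, Nfatc4 stood apart by class. In the control tumour it had 676 UMIs in fibroblast-like cells, 49.3 CPM (45.6 to 53.2), and in the AF12198 tumour 234 UMIs, 40.3 CPM (35.3 to 45.8). Every other named class of at least 25 cells held at most 4.54 CPM in either tumour, and endothelial-like cells held 1.97 and 2.79 CPM. A cluster with 12 of 13 pericyte and smooth muscle markers raised (88 control and 38 AF12198 cells) was left unnamed. It is in no class here, so fibroblast-like cells were not set against it. A UMI of Nfatc4 was found in 32.6% of fibroblast-like cells of the control tumour (median 8522.5 UMIs a cell) and in 0.126% of T-like cells (median 1910), and with cells thinned to 1000 UMIs in 4.86% and 0.0553%. In the normal and ligated pancreas, epithelial-like cells held 2.86 and 3.59 CPM of Nfatc4 against 23.2 and 39.3 CPM in fibroblast-like cells. T-like cells of the ligated pancreas held 35.5 CPM, from only 2 UMIs in 60 cells.

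**Figure D1:**
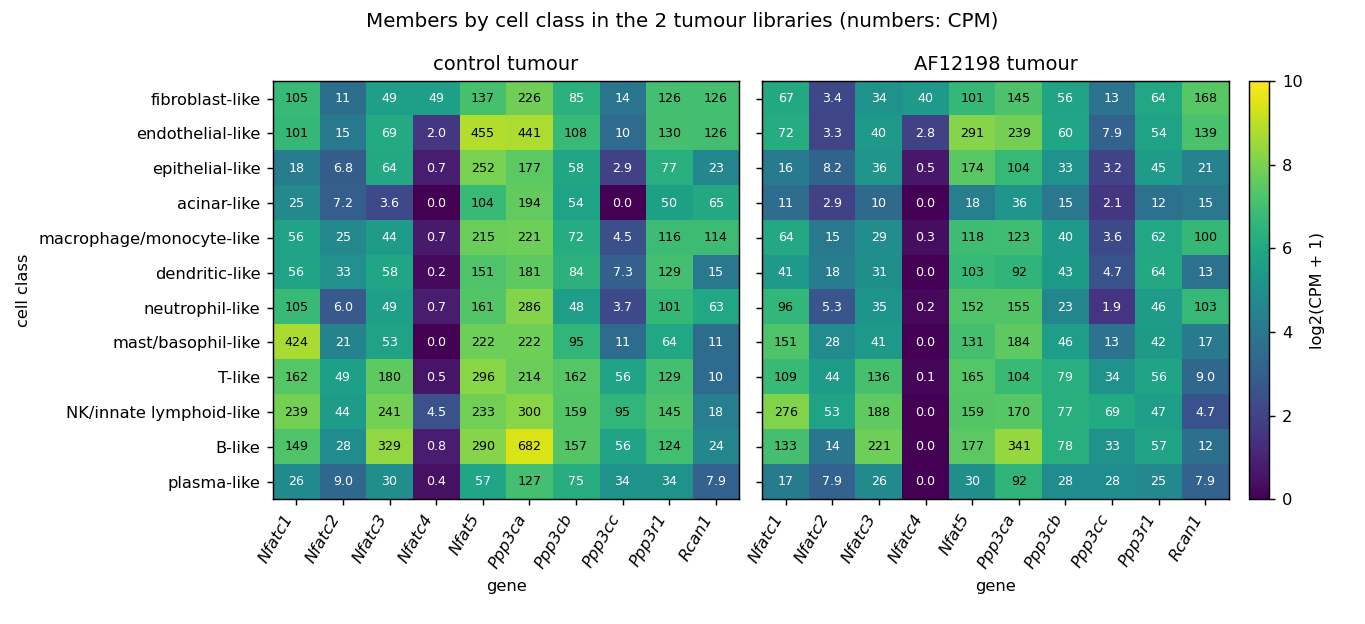
Level of each member (columns) in 12 cell classes (rows) of the control tumour and the AF12198 tumour; the colour is log2(CPM + 1) and the printed number is CPM, 1 library per tumour. Among the classes shown, Nfatc4 is near 0 outside fibroblast-like cells, and Nfatc3 is highest in B-like cells. Rcan1 is high in fibroblast-like, endothelial-like and macrophage/monocyte-like cells and low in T-like and B-like cells.

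Nfatc1, which T cells induce on activation and osteoclasts need to form, was broader. In the control tumour its level was highest in mast/basophil-like cells, at 424 CPM (303 to 577) from 40 UMIs in 35 cells, followed by NK/innate lymphoid-like cells at 239 CPM (203 to 280). T-like (162 CPM, 152 to 173) and B-like cells (149 CPM, 129 to 171) did not differ beyond counting error. Nor did fibroblast-like, neutrophil-like and endothelial-like cells, at 105, 105 and 101 CPM. Macrophage/monocyte-like cells held 56.5 CPM. Epithelial-like cells, in which tumour and host cells were not told apart, held 17.6 CPM, the lowest of the classes. In the AF12198 tumour NK/innate lymphoid-like cells stood first at 276 CPM, mast/basophil-like cells held 151 CPM, and epithelial-like cells held 16.2 CPM.

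Nfatc2, the main NFAT of resting T cells, reached 49.2 and 43.5 CPM in T-like cells of the control and AF12198 tumours and 43.9 and 53.3 CPM in NK/innate lymphoid-like cells. Neutrophil-like cells held 5.99 and 5.33 CPM. Nfatc3, the other NFATc factor of lymphocytes, was highest in B-like cells, at 329 and 221 CPM, ahead of NK/innate lymphoid-like (241 and 188 CPM) and T-like cells (180 and 136 CPM). Nfat5, the osmotic factor, was highest in endothelial-like cells, at 455 and 291 CPM, ahead of T-like cells in the control tumour (296 CPM) and B-like cells in the AF12198 tumour (177 CPM). Lymphoid classes thus held the highest levels of Nfatc2 and Nfatc3 in both tumours, and endothelial-like cells that of Nfat5.

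Among the phosphatase genes, Ppp3ca, which encodes the alpha catalytic subunit, stood highest in B-like cells (682 CPM in the control tumour and 341 CPM in the AF12198 tumour) and next in endothelial-like cells (441 and 239 CPM). Ppp3cb, the beta subunit, was highest in T-like (162 and 78.8 CPM), NK/innate lymphoid-like (159 and 76.9 CPM) and B-like cells (157 and 78.1 CPM), which did not differ beyond counting error. Ppp3cc, the gamma subunit, reached 95.4 and 68.6 CPM in NK/innate lymphoid-like cells, 56.2 and 33.1 CPM in B-like, 55.8 and 33.8 CPM in T-like and 33.9 and 28.2 CPM in plasma-like cells, against 2.93 and 3.19 CPM in epithelial-like cells. Ppp3r1, the regulatory subunit, ran in the control tumour from 34.3 CPM in plasma-like to 145 CPM in NK/innate lymphoid-like cells.

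Rcan1, the inhibitor, was low in the lymphoid classes that held the most Nfatc2 and Nfatc3, but not in them alone. In the control tumour fibroblast-like (126 CPM, 120 to 132) and endothelial-like cells (126 CPM, 111 to 143) stood at the top. Macrophage/monocyte-like cells followed at 114 CPM (109 to 119), an interval that overlaps the endothelial-like but not the fibroblast-like one. T-like cells held 10.2 CPM (7.80 to 13), NK/innate lymphoid-like cells 18.2 CPM, B-like cells 23.5 CPM and dendritic-like cells 15 CPM. Plasma-like cells held 7.91 CPM and epithelial-like cells 23.5 CPM, and both were also low in Nfatc2 (9.04 and 6.77 CPM). In the AF12198 tumour the order at the top was fibroblast-like (168 CPM), endothelial-like (139 CPM), neutrophil-like (103 CPM) and macrophage/monocyte-like (100 CPM), and T-like cells held 8.99 CPM. A UMI of Rcan1 was found in 33.7% of fibroblast-like and 2.43% of T-like cells of the control tumour (medians 8522.5 and 1910 UMIs), or 8.08% and 1.26% with cells thinned to 1000 UMIs. Free RNA shed by other cells gives UMIs in every class. Its estimate for Rcan1 in fibroblast-like cells of the control tumour was 9.95 CPM.

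Within the classes, single clusters carried much of the spread, as the plot of Nfatc1, Nfatc2 and Rcan1 by cluster shows. The macrophage/monocyte-like cluster led by Ctsk, Acp5 and Atp6v0d2, genes known from the osteoclast, held 647 CPM of Nfatc1 in the control tumour (186 UMIs in 27 of 76 cells) and 509 CPM in the AF12198 tumour (786 UMIs in 75 of 350 cells). That was 11.2 times (9.43 to 13.3) and 12.8 times (10.7 to 15.2) the level of the Ccl8 and Ms4a7 cluster of the same library. Against the Ccr2 and Nrg1 cluster it was 17.4 times (14.0 to 21.7) and 14.7 times (7.44 to 34.2). Nfatc2 did not stand higher there, at 10.4 and 9.07 CPM against 35.4 and 40.9 CPM in the Ccl8 and Ms4a7 cluster. A UMI of Nfatc1 was found in 35.5% and 21.4% of the cluster's cells, whose median depth was low, at 1234 and 913 UMIs.

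**Figure D2:**
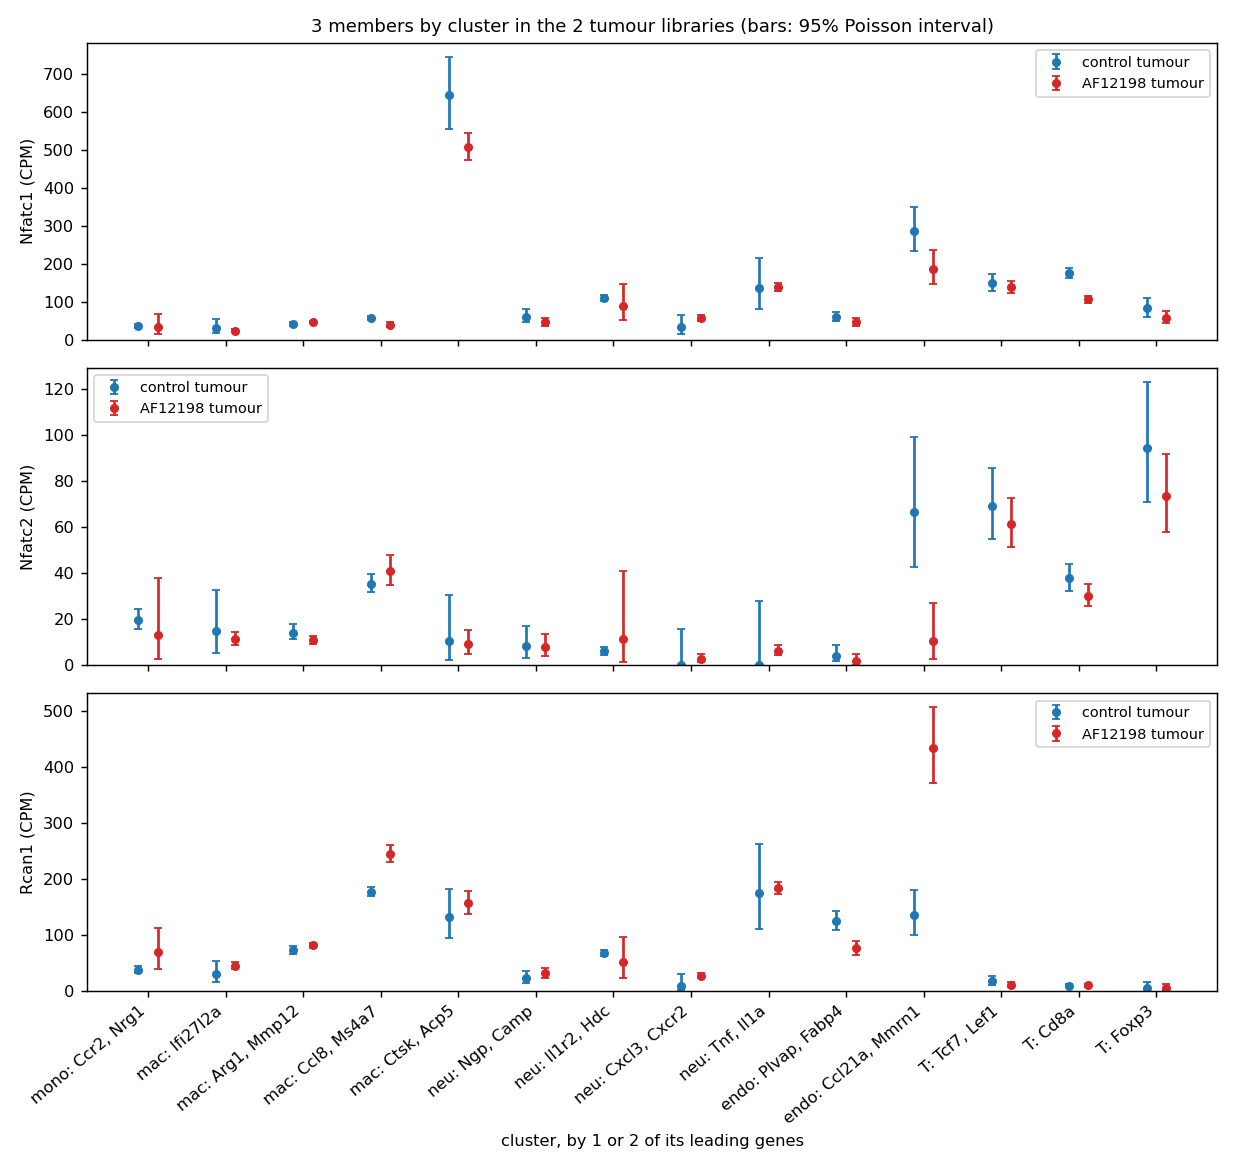
Level of Nfatc1, Nfatc2 and Rcan1 in CPM (linear axis, vertical) in 14 clusters (horizontal) of the control tumour and the AF12198 tumour, 1 library each, with exact Poisson 95% intervals. The Ctsk cluster is at 647 and 509 CPM for Nfatc1, the Foxp3 cluster is highest of the T-like clusters for Nfatc2, and the Ccl8 cluster is at 177 and 245 CPM for Rcan1.

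The cluster led by Ccl8 and Ms4a7, the latter a gene of mature macrophages, instead led for Rcan1, with 177 CPM in the control tumour and 245 CPM in the AF12198 tumour. The cluster led by Ccr2, the receptor by which monocytes enter tissue, and Nrg1 held 37.3 and 69.1 CPM, so that the ratio was 4.75 (4.03 to 5.63) and 3.54 (2.17 to 6.23). In the ligated pancreas the ratio was 5.66 (1.39 to 49.6) from 22 and 2 UMIs. Among T-like clusters, the cluster marked by Foxp3, the factor of regulatory T cells, held 94.1 and 73.3 CPM of Nfatc2 against 37.8 and 30.3 CPM in the Cd8a cluster, 2.49 times (1.80 to 3.41) and 2.42 times (1.82 to 3.20). Against the Tcf7 and Lef1 cluster the ratio was 1.36 (0.95 to 1.94) and 1.20 (0.892 to 1.59), which did not differ beyond counting error. Nfatc1 went the other way, with 83.7 and 59.2 CPM in the Foxp3 cluster against 176 and 107 CPM in the Cd8a cluster, 0.475 times (0.347 to 0.636) and 0.554 times (0.420 to 0.719).

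The lymphatic cluster of the endothelial-like cells, led by Ccl21a and Mmrn1, stood above the blood vessel cluster, led by Plvap and Fabp4, by more than counting error for 4 members in each library in which both were compared, and for Rcan1 in the AF12198 tumour alone. Nfat5 was at 2098 CPM against 492 CPM in the ligated pancreas, 1234 against 287 CPM in the control tumour and 709 against 202 CPM in the AF12198 tumour, with ratios of 4.27 (3.38 to 5.43), 4.30 (3.78 to 4.91) and 3.51 (2.98 to 4.12). Nfatc1, which lymphatic vessels use in forming valves, had ratios of 3.40 (1.97 to 6.09), 4.76 (3.59 to 6.32) and 4.02 (2.89 to 5.59). Ppp3ca had ratios of 2.94, 1.94 and 2.05. Nfatc2 had 24 UMIs against 7 in the control tumour, a ratio of 15.9 (6.63 to 43.6), 15 against 2 in the ligated pancreas, but only 4 against 3 in the AF12198 tumour, a ratio of 6.27 (1.06 to 42.8). Rcan1 had ratios of 0.443 and 1.09, with intervals that include 1, and 5.75 (4.55 to 7.28). Clusters were formed without the 10 members and their companions among the genes, yet on the same cells.

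Fibroblast-like cells numbered 136 in the normal pancreas, 283 in the ligated pancreas, 1346 in the control tumour and 523 in the AF12198 tumour, and the values of all 10 members are drawn by library. Rcan1 was at 23.2 CPM in the normal pancreas (14 UMIs), 129 CPM in the ligated pancreas (247 UMIs), 126 CPM in the control tumour (1733 UMIs) and 168 CPM in the AF12198 tumour (975 UMIs). The normal pancreas was low and the other 3 libraries were high. Its free-RNA estimate of 11.7 CPM in the normal pancreas was large beside the level there. Nfatc1 was at 21.6 CPM (13 UMIs), 66.0 CPM (126 UMIs), 105 CPM (1444 UMIs) and 66.6 CPM (387 UMIs) in the same order, lowest in the normal pancreas and highest in the control tumour. Nfatc4 was at 23.2 CPM (14 UMIs), 39.3 CPM (75 UMIs), 49.3 CPM (676 UMIs) and 40.3 CPM (234 UMIs), a narrower range. Nfatc2 was rare, with 1, 13, 152 and 20 UMIs (1.66, 6.81, 11.1 and 3.44 CPM), and in the normal pancreas it lay below its free-RNA estimate of 5.41 CPM.

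**Figure D3:**
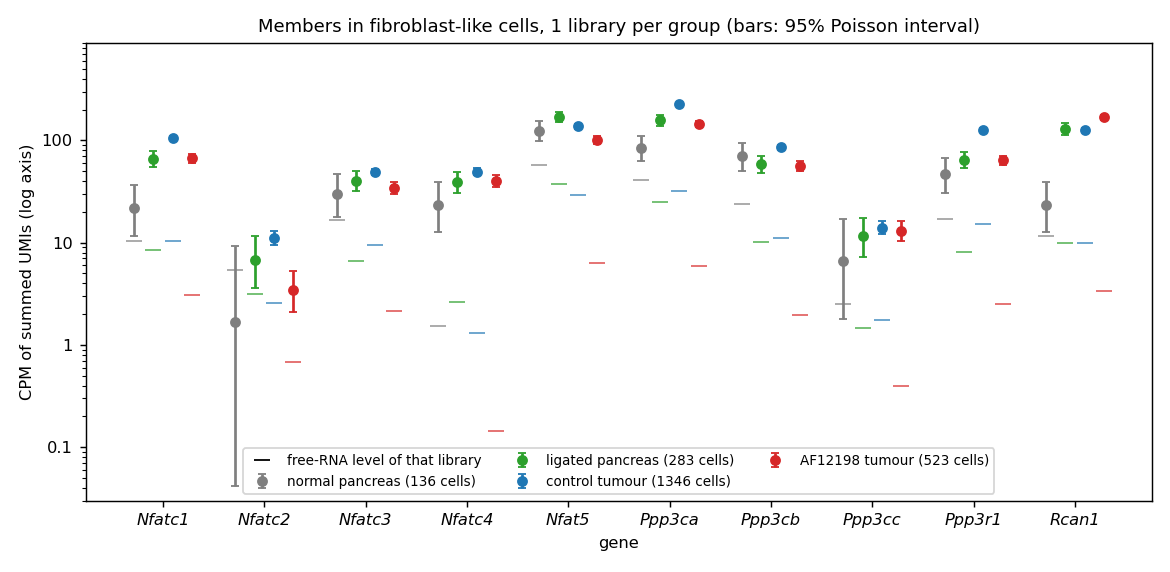
Level of each member in fibroblast-like cells of the normal pancreas, ligated pancreas, control tumour and AF12198 tumour (CPM, log axis; points with exact Poisson 95% intervals, 1 library per group; dashes give the level estimated from free RNA). Rcan1 is at 23.2 CPM in the normal pancreas and at 126 to 168 CPM in the other libraries, and Nfatc1 and Ppp3r1 are highest in the control tumour.

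In the ligated pancreas set against the normal one, Rcan1, Nfatc1 and Ppp3ca stood higher in fibroblast-like cells by more than counting error. Rcan1 was 5.57 times (3.26 to 10.3) its normal level, Nfatc1 3.06 times (1.72 to 5.90) and Ppp3ca, at 157 against 84.6 CPM, 1.85 times (1.37 to 2.54). All 10 members met the minimum of 5 UMIs in both libraries together and 5 CPM in 1 of them, and 6 stood higher by at least 1.5-fold and 0 lower. Among 11135 genes that met it, 43.4% lay past 1.5-fold, 22.3% higher and 21.2% lower. The other 3 higher members, Nfatc2 (4.10, 0.616 to 174), Nfatc4 (1.69, 0.947 to 3.24) and Ppp3cc (1.74, 0.589 to 6.93), had intervals that include 1. Nfat5 was 1.36 times (1.05 to 1.77) and Ppp3cb 0.834 times (0.580 to 1.22) its normal level. With every cell given equal weight, Rcan1 was 3.11 times and Nfatc1 1.70 times its normal level, and with free RNA subtracted 10.3 and 5.11 times. Rcan1 was uneven in the ligated pancreas, where its 247 UMIs lay in 46 of 283 cells.

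Genes known to respond to NFAT were counted from a list of 32. In ligated against normal fibroblast-like cells, 17 met the minimum, 10 stood higher and 4 lower, with a median log2 ratio of 0.95 against -0.01 for all genes. The nuclear receptor Nr4a2 (9.32 times), the cytokine Il6 (8.13 times) and the chemokine Ccl2 (6.84 times) led, and Tox (0.189 times), a factor of T cell exhaustion, and the matrix protein Spp1 (0.347 times) stood lowest. Of 34 companions of the pathway (calcium sensing and entry, NFAT kinases, other calcineurin regulators and cofactors), 31 met the minimum, 2 stood higher (Itpr3 at 1.66 times and Csnk1a1 at 1.57 times) and 7 lower, among them the calcium sensor Stim1 (0.435 times), the channel Orai2 (0.488 times) and the NFAT partner Mef2c (0.347 times). The members' own median was 0.72. A list of 16 genes known to rise when tissue is digested had 5 higher and 0 lower, with a median of 0.32, led by Ier3 (2.52 times), Zfp36 (2.40 times) and Dnajb1 (2.29 times), and took 1.71% of UMIs in the normal and 1.89% in the ligated library. Acinar markers summed to 2339 and 1018 CPM in these cells, with 9 of 12 markers found in each, and the free-RNA share was estimated at 35.6% and 14.0%. Macrophage/monocyte markers summed to 1087 and 810 CPM, with 8 and 16 of 16 found. The part of digestion, free RNA and other cells in these values was not tested.

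In the control tumour set against the ligated pancreas, Rcan1 of the whole fibroblast-like class did not differ beyond counting error. It stood at 0.977 times (0.855 to 1.12) the ligated level, or 1.66 times with every cell given equal weight. At a finer clustering all 283 ligated cells lay in a cluster led by Dpt. In that cluster alone Rcan1 stood at 1.165 times, outside the interval of the whole class. A UMI of Rcan1 was found there in 16.3% of ligated cells (median 4342 UMIs) and 34.3% of control tumour cells (median 8021). In the whole class Ppp3r1 stood higher, at 126 against 64.9 CPM (1.95 times, 1.62 to 2.36), as did Nfatc1 (1.60 times, 1.33 to 1.93). Nfatc1 was within 1.5-fold in other settings, at 1.26 times with equal weight and 1.48 times relative to the median of all genes. Of the 10 members, 3 stood higher by at least 1.5-fold, these and Nfatc2 (1.63 times, 0.924 to 3.13, and 0.909 times with equal weight), and 0 lower, where 37.2% of all genes lay past 1.5-fold, 21.7% higher and 15.5% lower. Ppp3ca (226 against 157 CPM, 1.45 times, 1.28 to 1.63) and Ppp3cb (85.2 against 58.1 CPM, 1.47 times, 1.21 to 1.80) were higher within 1.5-fold, and Nfat5 was lower (137 against 169 CPM, 0.808 times, 0.717 to 0.912). With mitochondrial genes and the ribosomal RNA collectors Gm42418 and AY036118 out of the totals, 1 member stood higher and Nfatc1 was at 1.43 times. These collectors took 18.4% of UMIs in the ligated library and 6.74% in the tumour.

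Of the response list, 19 genes met the minimum in this comparison, 10 stood higher and 0 lower, with a median of 0.61 against 0.11 for all genes. Spp1 (16.8 times), the costimulatory receptor Tnfrsf9 (12.7 times) and Rgs2 (5.48 times), a regulator of G-protein signalling, led. Among companions 8 stood higher and 2 lower of 31, with a median of 0.18, and the calcium channel Orai1 (2.38 times) stood higher and the calcineurin inhibitor Cabin1 (0.461 times) and Stim1 (0.507 times) lower. The digestion list had 4 higher and 0 lower of 16. Neutrophil markers summed to 171 CPM in the ligated and 958 CPM in the control tumour's fibroblast-like cells, with 10 and 13 of 13 found. Macrophage/monocyte markers summed to 810 and 1069 CPM, with 16 of 16 found in each. Mural markers summed to 431 and 931 CPM with 12 and 13 of 13 found, and mesothelial markers to 195 and 413 CPM with 7 and 8 of 8 found. Their part in these values was not tested.

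Set against the control tumour, fibroblast-like cells of the AF12198 tumour held less Ppp3r1, Nfatc1, Nfatc2, Ppp3ca and Ppp3cb for the same number of UMIs. They held more Rcan1. Ppp3r1 was at 63.7 against 126 CPM (0.504 times, 0.449 to 0.564), Nfatc1 at 66.6 against 105 CPM (0.633 times, 0.564 to 0.708) and Nfatc2 at 3.44 against 11.1 CPM (0.311 times, 0.184 to 0.497). Ppp3ca was at 0.642 times (0.594 to 0.693) and Ppp3cb at 0.663 times (0.585 to 0.750). These 5 members stood lower by at least 1.5-fold and 0 higher, where 33.1% of all genes lay past 1.5-fold, 24.8% lower and 8.32% higher, and the median of all genes was -0.26 on the log2 scale. Rcan1 stood at 1.33 times (1.23 to 1.44) and Nfatc4 at 0.817 times (0.701 to 0.949) the control level. The free-RNA share of these cells was estimated at 14.1% in the control and 4.66% in the AF12198 tumour, and with free RNA subtracted 2 members stood lower, with Nfatc1 at 0.670, Ppp3ca at 0.717 and Ppp3cb at 0.736 times. Ribosomal protein genes took 15.1% of UMIs in the AF12198 tumour's fibroblast-like cells and 8.30% in the control's. With ribosomal protein genes out of the totals 2 members stood lower, Nfatc2 and Ppp3r1, where 17.2% of all genes stood lower. Relative to the median of all genes, Nfatc2 and Ppp3r1 stood lower and Rcan1, at 1.59 times, higher, where 10.0% of all genes stood lower and 14.9% higher.

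In the response list, 2 genes stood higher and 10 lower of 19, with a median of -0.60. The cytokine Il11 (2.52 times) and Ccl2 (1.64 times) stood higher, and Rgs2 (0.470 times), the adhesion molecule Vcam1 (0.480 times) and the checkpoint receptor Lag3 (0.517 times) lower. Of 31 companions, 1 stood higher (Ppia at 1.77 times, the gene of cyclophilin A, which cyclosporin binds) and 8 lower, led by Mef2d (0.506 times), Crtc1 (0.541 times) and the calcium release channel Itpr3 (0.568 times), with a median of -0.35. The digestion list had 0 higher and 8 lower of 16, with a median of -0.59, led by Zfp36 (0.345 times), Ier2 (0.357 times) and Junb (0.425 times), and took 2.29% of UMIs in the control and 1.45% in the AF12198 tumour. Mesothelial markers summed to 413 and 211 CPM, neutrophil markers to 958 and 650 CPM and mural markers to 931 and 1259 CPM. Macrophage/monocyte markers summed to 1069 and 1085 CPM. The members' median was -0.54. What part of these values followed digestion or other cells was not tested.

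At a finer clustering the tumours' fibroblast-like cells fell into a larger cluster led by Dpt (1033 control and 391 AF12198 cells, also holding nearly all cells of the other libraries) and a cluster with Tnc and Tagln (313 and 132 cells, tumours only). Rcan1 was lower in the Tnc and Tagln cluster, at 64.6 against 151 CPM in the control tumour (0.429 times, 0.373 to 0.490) and 132 against 186 CPM in the AF12198 tumour (0.709 times). Nfatc2 was lower there too, at 0.453 times (23 against 129 UMIs) and 0.221 times, the latter from only 2 against 18 UMIs. Nfatc4 was not lower there (1.20 and 1.38 times). Nfatc1 was 1.21 times the Dpt level in the control tumour and 0.630 times in the AF12198 tumour. From the control to the AF12198 tumour, Rcan1 stood at 2.04 times (1.71 to 2.44) in the Tnc and Tagln cluster and 1.23 times (1.13 to 1.35) in the Dpt cluster. Nfatc1 stood at 0.398 times (0.315 to 0.498) and 0.765 times, and Ppp3r1 at 0.436 and 0.536 times. By the naming rule the Tnc and Tagln cluster taken alone has no name, since 9 of 13 mural markers were raised in it beside 16 of 16 fibroblast markers. Its leading and mural genes differed between the tumours too: from the control to the AF12198 tumour Tnc went from 2135 to 1148 CPM, Tagln from 1133 to 1945 CPM, Acta2 from 868 to 1544 CPM and Myh11 from 16.5 to 34.5 CPM. Their part in the values of Rcan1 and Nfatc1 was not tested. The direction of these 3 members was shared by both clusters, and the intervals of Rcan1 and Nfatc1 do not overlap between them.

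Endothelial-like cells of the ligated pancreas held more Nfat5 (1201 against 293 CPM, 4.10 times, 3.47 to 4.87), Ppp3ca (728 against 152 CPM, 4.79 times, 3.81 to 6.06) and Nfatc1 (205 against 39.0 CPM, 5.24 times, 3.34 to 8.44) than those of the normal pancreas. Nfatc2 had 17 UMIs against 1. Of 10 members, 4 stood higher and 1 lower (Nfatc4, 1 UMI against 4), where 32.1% of all genes stood higher and 21.9% lower. Lymphatic cells made up 38 of 132 endothelial-like cells in the ligated and 3 of 308 in the normal library. Within the blood vessel cluster alone the ratios were smaller, 1.71 (1.32 to 2.19) for Nfat5, 2.61 (1.91 to 3.54) for Ppp3ca and 2.80 (1.46 to 5.30) for Nfatc1, and 7.37 (0.384 to 435) for Nfatc2. Epithelial-like cells had 2 members higher, Nfat5 (249 against 155 CPM, 1.60 times) and Nfatc2 (27.8 against 16.5 CPM, 1.69 times), and 1 lower, Rcan1 (20.6 against 31.9 CPM, 0.646 times, 0.463 to 0.883), where 15.8% of all genes stood higher and 10.9% lower.

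From the ligated pancreas to the control tumour, Ppp3r1 stood higher by at least 1.5-fold in 5 of 6 classes. Over the 6 its ratio ran from 1.45 in macrophage/monocyte-like cells to 4.69 in neutrophil-like cells, where the ligated library had 3 UMIs. Endothelial-like cells had 2 members higher and 4 lower, where 26.6% of all genes stood higher and 33.7% lower. The higher ones were Ppp3r1 (130 against 58.4 CPM) and Rcan1 (126 against 78.9 CPM, 1.60 times, 1.07 to 2.48, and 0.891 times with equal weight). Nfatc2 was lowest at 0.308 times (0.165 to 0.593, from 31 against 17 UMIs), or 0.401 times in the vessel cluster alone. Nfat5 stood at 0.379 times (0.337 to 0.427), or 0.583 times (0.466 to 0.735) in the vessel cluster alone. Epithelial-like cells had 2 members higher and 4 lower, with Nfatc2 lowest at 0.244 times (0.177 to 0.338), where 26.0% of genes stood higher and 40.6% lower. These cells lay mostly in different clusters. A cluster led by Ces1d and Dcdc2a held 346 ligated and 88 control tumour cells. Clusters led by Tff1 and by Onecut2 held 7 and 622, and 0 and 543. Tumour cells were not told apart from host epithelium. Neutrophil-like cells had 6 higher and 0 lower (46.7% and 24.1% of genes) from 99 ligated cells, in which no member had more than 26 UMIs among the 6 and Nfatc2 had 0, against 57 in the tumour. Only Ppp3r1, Rcan1 and Ppp3ca of the 6 had intervals above 1. T-like cells had 2 higher and 2 lower (43.4% and 32.3%) from 60 ligated cells, the higher ones being Rcan1, with 0 ligated UMIs against 62, and Ppp3r1, with 3 against 787. No ratio is given against 0 UMIs at this depth. In macrophage/monocyte-like cells 0 stood higher and 1 lower, Nfatc2 at 0.565 times (0.333 to 1.04), where 22.8% and 29.2% of genes did.

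In the AF12198 tumour Ppp3ca, Ppp3cb and Ppp3r1 stood lower in nearly every class, as the plot of ratios by class shows. Ppp3cb stood lower by at least 1.5-fold in 12 of 12 classes (ratios 0.272 to 0.663), Ppp3r1 in 11 of 12 (0.242 to 0.724) and Ppp3ca in 10 of 12 (0.184 to 0.828). Ppp3ca, Ppp3cb and Ppp3r1 each lay below the median of all genes in 12 of 12 classes. The share of all genes that lay below it in every class was not counted. Ppp3cc stood lower in 3 of the 8 classes in which it met the minimum (0.589 to 1.22). In T-like cells, for which calcineurin is best known, Ppp3r1 was at 56.4 against 129 CPM (0.437 times, 0.389 to 0.490), Ppp3cb at 78.8 against 162 CPM (0.486 times, 0.440 to 0.537) and Ppp3ca at 104 against 214 CPM (0.487 times, 0.446 to 0.531). Nfat5 stood lower in 7 classes, Nfatc2 in 6, and Nfatc1 and Nfatc3 in 4 each. Rcan1 differed, with 3 classes lower and 2 higher, and it lay below the median of all genes in 3 of 12 classes. All classes share the same pair of libraries, so they are not separate observations.

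**Figure D4:**
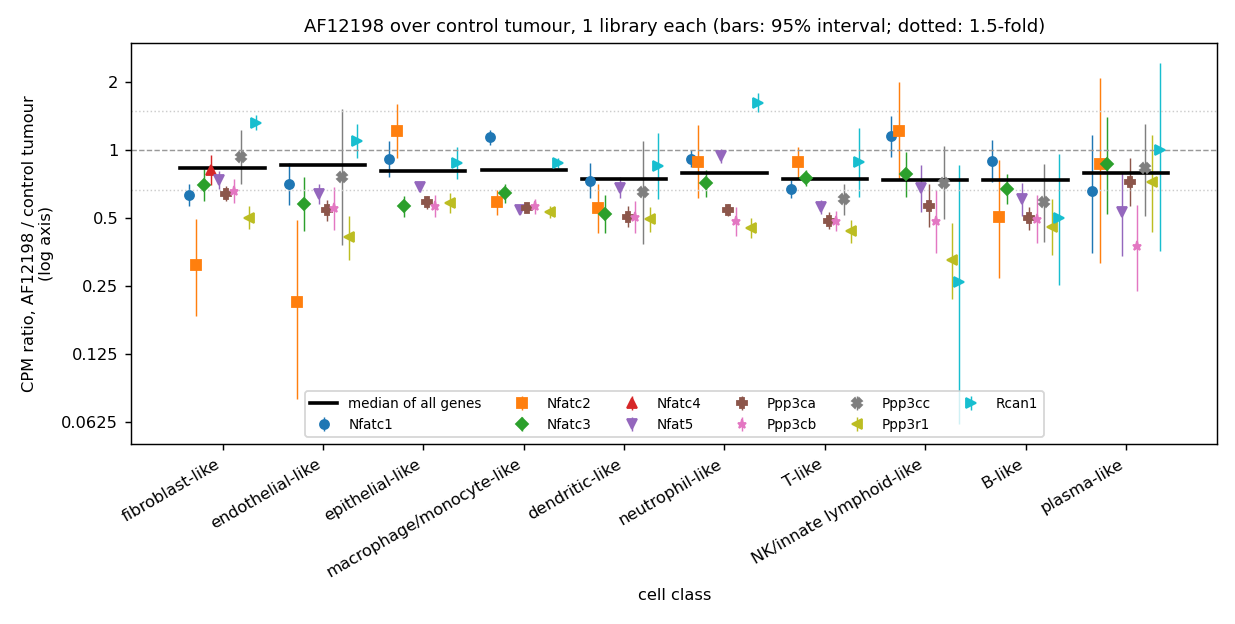
Ratio of AF12198 tumour to control tumour (log axis, vertical) for each member in 10 cell classes, 1 library per tumour, with exact 95% intervals; the black line is the median ratio of all genes of the class and the acinar-like and mast/basophil-like classes are left out of the picture. Ppp3ca, Ppp3cb and Ppp3r1 lie below the line in each class shown, and Rcan1 lies above it in 8 of the 10 classes, all but B-like and NK/innate lymphoid-like cells.

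Beside these stands the background of each class. Members lower by at least 1.5-fold, of those that met the minimum, were 7 of 9 in B-like cells (42.5% of genes lower), 6 of 9 in dendritic-like (38.9%) and 6 of 9 in endothelial-like cells (27.2%). Further counts were 6 of 8 in macrophage/monocyte-like (27.2%), 5 of 9 in T-like (39.0%), 4 of 9 in NK/innate lymphoid-like (42.8%) and 4 of 8 in epithelial-like cells (28.2%). Neutrophil-like cells had 3 of 8 (33.7%), plasma-like cells 3 of 9 (39.7%), mast/basophil-like cells 4 of 9 (34.7%) and acinar-like cells 7 of 8 (70.9%). Outside fibroblast-like cells 55 pairs of member and class stood lower and 3 higher, or 46 lower with ribosomal protein genes out of the totals, and 24 lower and 6 higher relative to the median of all genes of each class. The tumours' macrophage/monocyte-like cells lay mostly in different clusters: the Ccr2 and Nrg1 cluster held 1793 control and 150 AF12198 cells, the Ccl8 and Ms4a7 cluster 2092 and 659, the Ifi27l2a cluster 95 and 1271, and the Arg1 and Mmp12 cluster 711 and 1963. Within these 4 and the Ctsk cluster the ratio was 0.524 to 0.681 for Ppp3ca, 0.531 to 0.784 for Ppp3cb and 0.443 to 0.779 for Ppp3r1. Within the T-like clusters led by Tcf7, Cd8a and Foxp3 it was 0.461 to 0.563, 0.472 to 0.505 and 0.391 to 0.463, though at resolution 2.0 Cd8a cells also split by tumour, with 937 and 15 cells in 1 cluster and 34 and 748 in another. Ribosomal protein genes took 11.6% of T-like UMIs in the control and 22.7% in the AF12198 tumour, 10.8% and 22.8% in B-like, 7.93% and 13.9% in macrophage/monocyte-like and 6.76% and 14.1% in endothelial-like cells. The digestion list had 6 to 16 of its 16 genes lower in each of these 11 classes. Their part in the members' values was not tested.

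Rcan1 of neutrophil-like cells, at 103 against 63.4 CPM (1.63 times, 1.47 to 1.80), was 1 of the 3 higher pairs, where 7.01% of genes stood higher. The other pairs rested on 1 control UMI each, and their intervals include 1: Nfatc3 in acinar-like cells, with 24 UMIs in the AF12198 tumour (2.80 times, 0.456 to 115, where 7.33% of genes stood higher), and Rcan1 in mast/basophil-like cells, with 9 (1.56 times, 0.217 to 68.6, where 27.6% did). Within the neutrophil-like clusters the ratio was 1.05 (0.697 to 1.67) in the Tnf and Il1a cluster, 0.754 in the Il1r2 and Hdc cluster and 3.20 (0.865 to 26.7) in the Cxcl3 and Cxcr2 cluster. The Tnf and Il1a cluster held 175 and 184 CPM of Rcan1 in the control and AF12198 tumours, and in the latter 1042 UMIs in 413 of 3763 cells, 6.78 times (5.60 to 8.28) the Cxcl3 and Cxcr2 cluster. The Il1r2 and Hdc cluster held 67.3 CPM in the control tumour. In endothelial-like cells, where Rcan1 of the whole class was 1.10 times (0.927 to 1.30) the control level, the lymphatic cluster stood at 435 against 136 CPM (3.20 times, 2.31 to 4.50; 164 UMIs in 21 of 34 cells against 49 UMIs in 33 of 100). The blood vessel cluster stood at 75.6 against 124 CPM (0.609 times, 0.487 to 0.761), so the clusters lay on opposite sides of 1.

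Calcineurin and its NFAT substrates must meet in 1 cell, so detection was also counted cell by cell. In fibroblast-like cells of the control tumour, 89.7% of cells with an Nfatc1 to Nfatc4 UMI also had a UMI of a catalytic subunit, and 69.7% one of Ppp3r1. Cells with more UMIs show more of every gene. Expected counts were therefore taken within 10 bins of cells by depth, from the share of cells with each gene. Against these, 6 pairs of roles (such as NFATc with catalytic subunit, catalytic with regulatory subunit, or Rcan1 with catalytic subunit) were seen together 0.993 to 1.07 times the expected number in the ligated pancreas and both tumours. The median over these pairs in the control tumour was 1.01, and 1.12 with depth ignored. A role found in most cells leaves this ratio little room above 1. Values near 1 therefore cannot decide whether the roles go together.

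**Figure D5:**
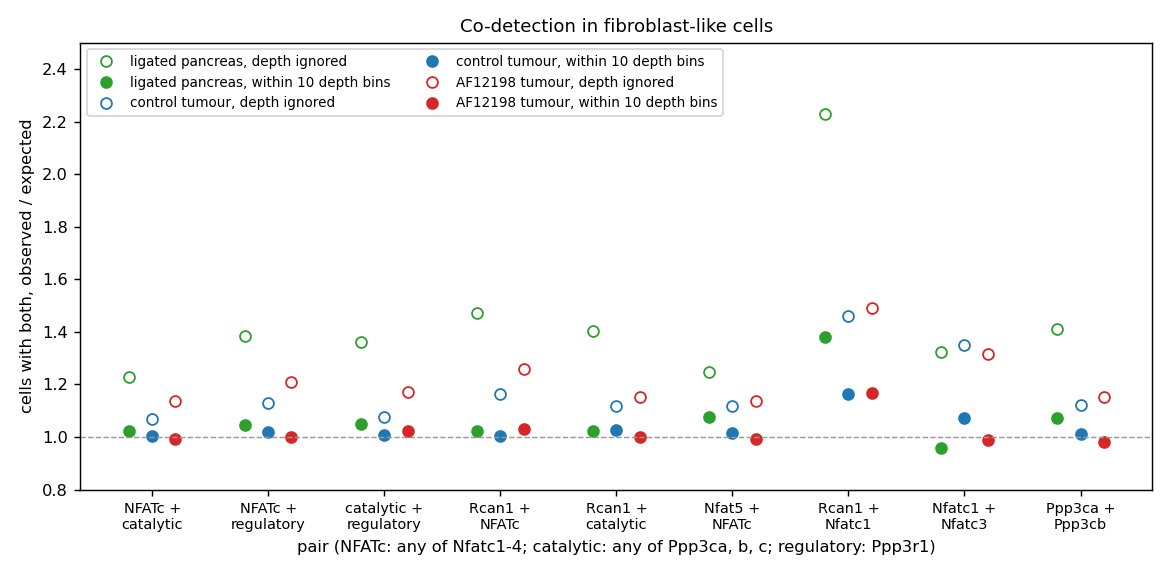
Observed over expected number of fibroblast-like cells with a UMI of both genes of a pair (vertical axis, a ratio) for 9 pairs (horizontal) in the ligated pancreas, control tumour and AF12198 tumour; open symbols ignore depth and filled symbols use 10 depth bins. With depth bins the role pairs lie at 0.993 to 1.07, and Rcan1 with Nfatc1 lies at 1.38, 1.16 and 1.17.

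Pairs of Rcan1 with single NFATc genes, chosen after their values were seen, lay further from the expected number. A single NFATc gene is found in fewer cells than the NFATc role and leaves more room above 1. These ratios are therefore not comparable with those of the role pairs. Rcan1 and Nfatc1 were found together in 25 fibroblast-like cells of the ligated pancreas against 18.1 expected (1.38 times), 271 against 233 in the control tumour (1.16 times) and 128 against 110 in the AF12198 tumour (1.17 times). In the control tumour 59.8% of cells with Rcan1 had Nfatc1. Rcan1 with Nfatc2 was at 1.29, 1.16 and 1.40 times, from 2, 48 and 13 cells. Rcan1 with the immediate-early genes Fos and Egr1, known to rise on digestion, lay at 0.975 to 1.01 times. Fos and Egr1 were found in most cells with Rcan1, so these ratios had little room above 1 and set no contrast to Nfatc1. In neutrophil-like cells Rcan1 and Nfatc1 were found together in 133 cells of the AF12198 tumour against 78.2 expected (1.70 times), and at 1.30 times in the control tumour. Endothelial-like cells of the control and AF12198 tumours stood at 1.20 and 1.24 times, and epithelial-like cells at 1.21 and 1.27 times. Depth bins do not remove differences between kinds of cell within a class, such as the neutrophil-like clusters.

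Over 35 pairs of class and library with at least 50 cells, the genes whose log2(CPM + 1) followed each member most closely were sought among 12255 genes. Nfatc1 was nearest to Elf4 (Pearson r = 0.941), an ETS factor of lymphoid and myeloid cells, and Nfatc4 to Kcne4 (r = 0.916), Ptn (r = 0.910), a heparin-binding growth factor, and Angpt4 (r = 0.895). Rcan1 was nearest to Ptgs1 (r = 0.862), the constitutive cyclooxygenase, Plod3 (r = 0.841), a collagen-modifying enzyme, and Ralb (r = 0.829). Nfat5 was nearest to Nufip2 (r = 0.913), Nfatc3 to Rfx7 (r = 0.873) and Nfatc2 to Trim36 (r = 0.809). Of the phosphatase genes, Ppp3cc was nearest to Lax1 (r = 0.860), a lymphocyte adaptor, Ppp3r1 to Rpe (r = 0.896), Ppp3cb to Socs7 (r = 0.885) and Ppp3ca to Abhd17b (r = 0.808). The points share 4 libraries and differ in depth, and the values are a description.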

How the data were processed

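Per the labels, tissue was digested with collagenase for 90 minutes at 37 °C and cells went into v3 10x 3′ libraries. The authors deposited whole-number UMI counts per gene and cell barcode for 32285 genes, and per the submitters' processing notes Cell Ranger 6.0.0 and mm10 were used. Neither the release of the gene annotation nor how cells were called is given in the sources used here. Barcodes numbered 1844, 1165, 23189 and 21840 (normal, ligated, control tumour, AF12198 tumour), and kept cells held 11235204, 5315805, 80398550 and 85735234 UMIs, which sets the counting intervals.

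Cells with at least 250 genes, 500 UMIs and at most 20% mitochondrial UMIs were kept. Scrublet removed 1, 0 and 2163 doublets in the first 3 libraries. In the AF12198 library it called 1 cell, so the top-scoring 5% (993) were dropped. Counts were scaled to 10000 per cell and log-transformed, and 2000 variable genes without the members and companions gave 40 principal components, 20 nearest neighbours and Leiden clusters at resolution 1.0, without integration (Scanpy 1.11.5). A cluster was named where 3 markers of a class were raised 2-fold and found in 10% of its cells, and left unnamed where a second class had 5 markers and 50% of its list raised. Unnamed clusters held 0.395, 2.31, 1.36 and 0.535% of cells. Clustering settings and naming rule were settled after clusters, but not member values, had been seen. Rebuilt names may differ from the authors' own.

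UMIs were summed per class and library. Intervals are exact at 95% (SciPy 1.17.1). Genes with at least 5 UMIs in both libraries together and 5 CPM in 1 were compared, and "higher" and "lower" mean past 1.5-fold. Classes needed 25 cells in a library. Thinned shares use 1000 UMIs a cell, leaving 84, 252, 1337 and 503 fibroblast-like cells and 2109 T-like cells of the control tumour. Free RNA was estimated from genes foreign to a class and the pooled profile of the library. A gene with 0 UMIs has an upper limit of 3 counts. The ratio code was tested on simulated data. The text names every member, the 2 or 3 genes of each list with the largest ratio either way that are past 1.5-fold, and 1 to 3 nearest genes by correlation. A gene of the companion list that this rule picks is not reported here.

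The members and gene lists were chosen with earlier results of these data known. The clusters contrasted, the finer fibroblast-like clusters, the Rcan1 pairs with Nfatc1, Nfatc2, Fos and Egr1, the promoters shown and 6 of the alternatives were chosen after the files had been seen. Alternatives covered totals, weighting, free RNA, filters, doublets, clustering, call size and depth bins.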

Additional observations from a re-analysis of the deposited data

Results flagged for a closer look

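Some members stood on opposite sides of 1 in different classes of the same pair of libraries, each past 1.5-fold. None of these differences was tested, since each group is 1 library. Nfatc1 in the control tumour was 1.60 times the ligated level in fibroblast-like cells and 0.494 times in endothelial-like cells. The former was 1.26 times with every cell given equal weight, 1.43 times without mitochondrial genes and collectors in the totals and 1.48 times relative to the median of all genes, each within 1.5-fold. Ppp3ca in the same comparison was 1.53 times in neutrophil-like cells, from 26 ligated UMIs, and 0.606 times in endothelial-like cells, but in neutrophil-like cells 1.13 times, within 1.5-fold, relative to the median of all genes. Rcan1 in the ligated pancreas was 5.57 times the normal level in fibroblast-like cells and 0.646 times in epithelial-like cells. Rcan1 in the AF12198 tumour was 1.63 times the control level in neutrophil-like cells and 0.227 times in acinar-like cells, of which the control tumour had 56. In the blood vessel cluster alone Ppp3ca was 0.963 times (0.757 to 1.24) the ligated level, within 1.5-fold. Nfatc1 was 0.609 times (0.371 to 1.05) there, inside the interval of the whole endothelial-like class (0.375 to 0.658). The part of the lymphatic share in these values was not tested. The neutrophil-like clusters of the tumours held different cells, and in the Tnf and Il1a cluster Rcan1 was 1.05 times (0.697 to 1.67) the control level.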

How the results depend on the processing

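No paired analysis was possible because each group is 1 library. For the same reason no library could be left out. Counts of members past 1.5-fold, and levels in fibroblast-like cells of the control tumour, changed as follows, and the cause was not tested unless the setting itself states it. With a 2-fold limit, fibroblast-like counts were 3 higher (ligated over normal, from 6), 0 higher (control over ligated, from 3) and 1 lower (AF12198 over control, from 5). In the other classes together they were then 0 lower (from 2) in the first comparison, 6 higher and 7 lower (from 12 and 11) in the second, and 1 higher and 24 lower (from 3 and 55) in the third. Centred on the median of all genes, the AF12198 tumour had 1 member higher and 2 lower in fibroblast-like cells, and 6 higher and 24 lower elsewhere. Members lower in its fibroblast-like cells were 2 with free RNA subtracted or ribosomal protein genes out of the totals, and 3 at resolution 2.0 or in the larger finer cluster alone.

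For ligated over normal in the other classes, 12 stood higher (from 6) with equal weight of cells and 11 with free RNA subtracted. The 2 lower became 1 without mitochondrial genes, Gm42418 and AY036118 in the totals, with equal weight, the stricter cell filter, resolution 2.0, either clustering on pooled variable genes or the 40% naming rule. They became 0 with free RNA subtracted, doublets kept, resolution 0.5 or members among the clustering genes; under the last 3 and the 40% rule 1 of the 2 classes had a value. For control over ligated, fibroblast-like cells had 1 higher without the mitochondrial genes and collectors, and 1 lower with equal weight. Other classes had 7 higher and 6 lower at resolution 0.5, 7 lower with members among the clustering genes and 6 lower under the 40% rule, but only 3, 4 and 4 of the 5 classes then had a value, so these counts cover fewer classes.

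Rcan1 moved from 126 CPM to 142 (mitochondrial genes and collectors out), 99.7 (equal weight), 116 (free RNA subtracted), 151 (resolution 2.0) and 138 (ribosomal protein genes out). Nfatc1 moved from 105 CPM to 118, 93.0, 94.8, 99.4 and 115 in the same order, and Nfatc4 from 49.3 CPM to 55.3 (mitochondrial genes and collectors out) and 53.8 (ribosomal protein genes out). Co-detection of role pairs moved from 1.01 to 1.12 with 1 depth bin. Ratios that changed side were Nfatc4 in ligated over normal endothelial-like cells, from 5 UMIs in all (1.00 with the stricter filter, 3.66 at resolution 0.5, 3.98 with unscaled pooled genes), and, with equal weight, Ppp3cc in ligated over normal fibroblast-like cells (0.741), Rcan1 in control over ligated endothelial-like cells (0.891) and Nfatc2 in control over ligated fibroblast-like cells (0.909). Depth limits the normal fibroblast-like cells, in which Nfatc2 had 1 UMI, Nfatc1 13, and Nfatc4 and Rcan1 14 each.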
